A study of Mus musculus with 16 samples.

Results

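Genes that mark the pancreas were followed across arrays of mouse liver and of inflammatory cells taken from it. The set lists 38 genes: 31 of the acinar cell, that is its digestive enzymes, granule proteins and transcription factors, and 7 of the islet, that is the hormones Ins1, Ins2, Gcg, Sst, Ppy and Iapp and the transcription factor Pdx1. The members were chosen by name as known pancreas genes, after earlier measured levels on these arrays had shown pancreas transcripts in some inflammatory cell arrays. Levels in inflammatory cells against liver and the unevenness between arrays, which that choice used, are therefore given as a description. A probe was found for 37 of the 38 members (30 acinar and 7 islet) among 33269 gene names on the array; the chymotrypsin gene Ctrc had none. Where a gene had several probes the brightest was used.

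The study asked how adipose tissue-derived stem cells (ADSC, mesenchymal cells grown from fat) change gene expression in cirrhotic liver. All mice were C57Bl/6 females kept for 40 weeks on a high-fat, atherogenic diet, a model of liver cirrhosis, and no mouse on a normal diet was analysed here. The ADSC groups had received 2 injections of 100000 cells below the capsule of the spleen, the cells having been expanded in culture from inguinal fat of GFP-transgenic mice; the control groups had received phosphate-buffered saline (PBS). The injections were 2 weeks apart, and collection followed 2 weeks later. RNA of whole liver and of the inflammatory cells of the liver was measured on 1-colour arrays, with 4 arrays for each treatment in each sample type. Numbers 11 to 14 are PBS and 7 to 10 are ADSC. The labels do not say that the numbers stand for separate animals, so p-values measure only the spread between these samples. The extraction protocol of the labels speaks of cells infiltrating a tumour and of blood, which leaves the isolation of the hepatic cells unsettled.

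The exocrine pancreas makes and secretes the enzymes that digest protein, fat and starch. Acinar cells store these enzymes as inactive precursors in zymogen granules, and their genes are switched on together by a complex of the factors PTF1A and RBPJL, helped by NR5A2 and BHLHA15 (also called MIST1). Islet cells lie scattered among the acini and release hormones into the blood: insulin and amylin from beta cells, glucagon from alpha cells, somatostatin from delta cells and pancreatic polypeptide from PP cells. Neither cell type belongs to the liver, although NR5A2 is also a regulator of bile acid synthesis in hepatocytes and insulin acts on the liver through the portal blood.

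The acinar genes moved together across the arrays, and their promoters are shown for that reason. The PTF1 complex is known to bind an E-box beside a TC-box. The letters CACCTG and TTTCCC were therefore searched on both strands in the 250 bases before the start of each gene (RefSeq, build GRCm38.p6), which were found for 26 of the 31 acinar members (27 windows, since Nr5a2 has 2) and 6 of the 7 islet members. CACCTG was present in 14 of the 27 acinar windows (51.9%), in 2 of the 6 islet windows (33.3%) and in 17.2% of all 32851 promoters in the table. TTTCCC was present in 6 of 27 acinar windows (22.2%), in 0 of 6 islet windows and in 21.9% of all promoters. Both occurred in 3 acinar windows (11.1%, against 3.61% of all promoters), those of Cela2a, Prss2 and Cel, at any distance from each other. From the start of the gene, the first CACCTG and first TTTCCC lay at -218 and -84 in Cela2a. They lay at -169 and -110 in Prss2 and at -170 and -86 in Cel. The count therefore does not require an E-box beside a TC-box. The letters TCAAGGTCA, an NR5A2 element, were in 0 of 27 acinar windows, 0 of 6 islet windows and 0.387% of all promoters, and TATAAA was in 9 acinar windows (33.3%), 2 islet windows (33.3%) and 12.4% of all. The windows with both motifs are printed with that of Cela3b, an elastase with 2 copies of CACCTG, and that of the insulin gene Ins1, which holds neither. Capitals mark CACCTG or its reverse complement CAGGTG, and TTTCCC or its reverse complement GGGAAA. The windows are Cela3b at chr4:137430521-137430770 on the - strand, Cela2a at chr4:141826006-141826255 on the - strand, Prss2 at chr6:41521526-41521775 on the + strand, Cel at chr2:28563404-28563653 on the - strand and Ins1 at chr19:52264047-52264296 on the + strand. Each is written 5′ to 3′ on the strand of the gene.
Cela3b: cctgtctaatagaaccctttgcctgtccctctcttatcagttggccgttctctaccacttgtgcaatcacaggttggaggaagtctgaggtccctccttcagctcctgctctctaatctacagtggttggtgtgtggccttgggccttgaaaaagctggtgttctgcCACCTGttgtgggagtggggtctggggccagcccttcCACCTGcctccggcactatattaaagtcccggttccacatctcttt
Cela2a: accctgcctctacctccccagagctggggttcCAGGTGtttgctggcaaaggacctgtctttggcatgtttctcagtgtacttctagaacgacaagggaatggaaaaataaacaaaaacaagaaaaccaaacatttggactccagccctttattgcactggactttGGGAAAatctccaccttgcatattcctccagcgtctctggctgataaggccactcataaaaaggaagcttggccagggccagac
Prss2: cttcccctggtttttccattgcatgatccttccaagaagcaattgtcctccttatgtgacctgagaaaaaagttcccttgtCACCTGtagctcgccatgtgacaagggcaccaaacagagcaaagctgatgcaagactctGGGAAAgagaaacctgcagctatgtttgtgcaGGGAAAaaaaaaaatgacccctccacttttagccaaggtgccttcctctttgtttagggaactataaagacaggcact
Cel: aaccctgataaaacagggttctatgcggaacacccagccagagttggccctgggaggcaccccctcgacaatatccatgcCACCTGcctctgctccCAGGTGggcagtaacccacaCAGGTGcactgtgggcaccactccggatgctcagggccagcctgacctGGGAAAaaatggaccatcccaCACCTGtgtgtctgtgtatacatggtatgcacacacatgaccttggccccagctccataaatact
Ins1: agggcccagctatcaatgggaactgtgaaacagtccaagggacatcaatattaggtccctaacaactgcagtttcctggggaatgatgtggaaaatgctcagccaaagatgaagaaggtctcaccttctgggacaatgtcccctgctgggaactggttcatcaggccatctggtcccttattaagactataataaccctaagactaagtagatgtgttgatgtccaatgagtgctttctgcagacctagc

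Cela2a and Prss2 each hold 1 CACCTG, and Prss2 holds 2 copies of TTTCCC. Cel holds 4 copies of CACCTG. These are matches of letters only, and binding was not measured.

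Levels are the log2 processed signal minus the 75th percentile of the same array, so 0 is the level of that percentile, and they compare arrays for 1 gene but not 1 gene with another. A probe is called detected where the scanner software marked it well above background. Of all spots, 51.6% to 66.4% were detected per array, and arrays of 1 group correlated at 0.936 to 0.982 over all genes. The sample labels were checked with marker genes: the mean of 4 leukocyte genes (Ptprc, Coro1a, Laptm5 and Cd52) lay between 5.74 and 6.17 in the inflammatory cells and between 2.96 and 3.80 in the livers, and the mean of 5 hepatocyte genes between 0.66 and 2.93 in the inflammatory cells and between 5.50 and 6.53 in the livers. In bulk samples such as these, fewer cells of a type and less RNA per cell cannot be told apart. Inflammatory cells PBS 11, PBS 13 and ADSC 10 stood apart from the other 5 inflammatory cell arrays in the acinar genes, and the comparisons, fold bounds, spread and likeness that rest on them are also given without them.

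The islet genes were below detection in liver, as were 15 of the 30 acinar genes. All 7 islet members were detected on 0 of the 8 liver arrays. Of the 30 acinar members, 15 were detected on 0 liver arrays, 9 on some and 6 on all 8. The 6 were the chymotrypsinogen gene Ctrb1, the amylase gene Amy2a5, Rnase1 (a secreted ribonuclease), the kallikrein gene Klk1, Bhlha15 and Nr5a2. Between 8 and 12 acinar members were detected per liver array. On inflammatory cell arrays PBS 11 to 14 the detected acinar members numbered 29, 26, 30 and 27, and on ADSC 7 to 10 they numbered 21, 22, 24 and 30. The islet members numbered 4, 6, 7 and 4 on PBS arrays, then 6, 6, 5 and 5 after ADSC. Of the acinar members, 20 were detected on all 8 inflammatory cell arrays, 7 on 4 to 7 and 3 (Cuzd1, Serpini2 and Ptf1a) on fewer than 4.

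**Figure D1:**
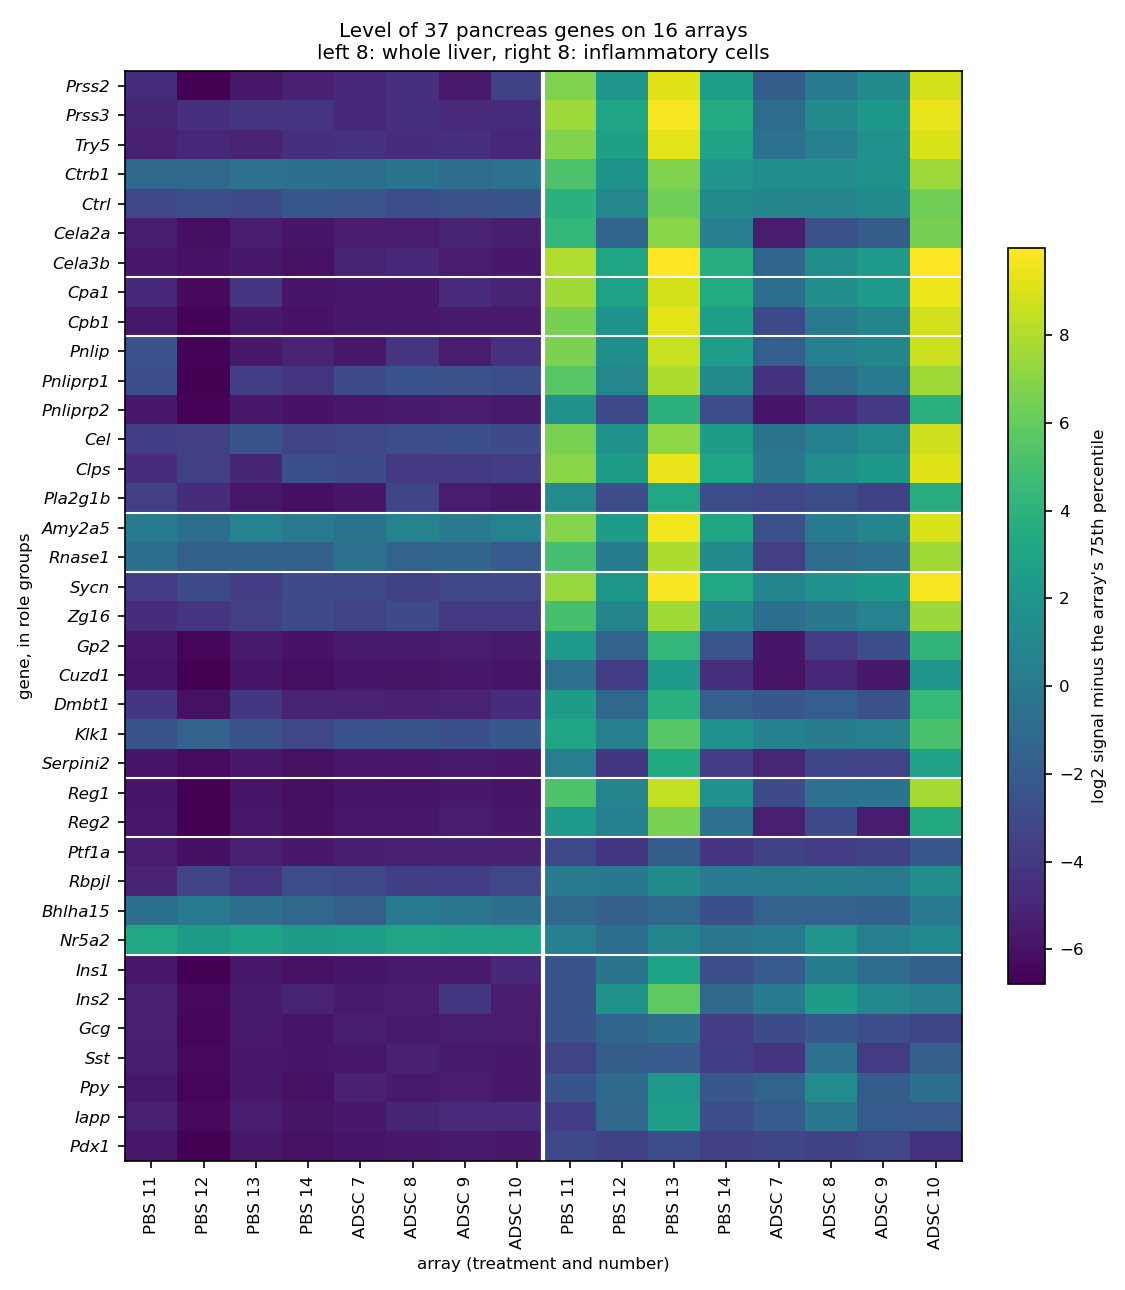
Level of each of the 37 members with a probe (rows, in role groups split by white lines) on the 16 arrays (columns, livers left and inflammatory cells right), as log2 signal minus the array's 75th percentile; colours compare arrays within a row. The enzyme rows are brightest in inflammatory cells PBS 11, PBS 13 and ADSC 10. The islet rows at the bottom are brightest in PBS 13, apart from Sst, which is brightest in inflammatory cells ADSC 8.

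In the inflammatory cells the acinar genes followed 1 pattern. The median level of the 30 acinar members was 5.08 in PBS 11, 0.80 in PBS 12, 7.06 in PBS 13 and 1.24 in PBS 14. It was -1.76 in ADSC 7, 0.14 in ADSC 8, 0.50 in ADSC 9 and 7.47 in ADSC 10. PBS 11, PBS 13 and ADSC 10 were thus far above the other 5, and both treatments held a high array. The livers had medians between -5.42 and -4.36. For 28 of the 30 acinar members the highest 3 inflammatory cell arrays were ADSC 10, PBS 11 and PBS 13, and for the other 2, Rbpjl and Nr5a2, ADSC 8 took the place of PBS 11. PBS 13 was the highest array for 20 members and ADSC 10 for 9, and ADSC 7 was the lowest for 21.

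**Figure D2:**
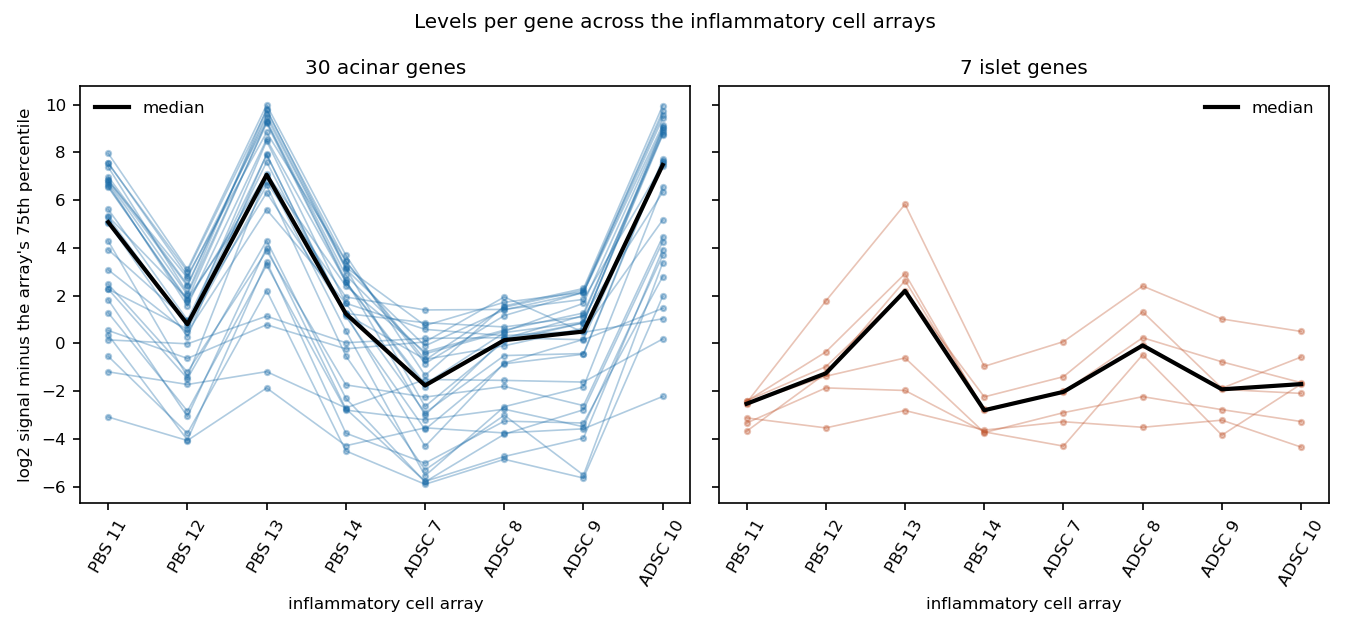
Level (log2 signal minus the array's 75th percentile) of each of the 30 acinar genes (left) and 7 islet genes (right) on the 8 inflammatory cell arrays; each thin line is 1 gene and the thick line the median. The acinar median is 7.06 in PBS 13 and 7.47 in ADSC 10, whereas the islet median is 2.20 in PBS 13 and -1.70 in ADSC 10.

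The protein-digesting enzymes come first. Cela3b, which encodes an elastase, stood at 7.96, 3.10, 9.98 and 3.69 in inflammatory cells PBS 11 to 14 and at -1.34, 1.57, 2.30 and 9.96 in ADSC 7 to 10. PBS 13 and ADSC 10 were almost level, and the groups overlapped over most of their range. The livers lay between -6.00 and -4.86, with 0 of 8 detected. The trypsinogen gene Prss3 stood at 7.54, 3.01, 9.76 and 3.44 in PBS and at -0.84, 1.17, 2.14 and 9.42 in ADSC. Try5, another trypsinogen gene, stood at 6.83, 2.75, 9.31 and 2.85 in PBS and at -0.44, 0.50, 1.68 and 9.04 in ADSC. Prss2, Prss3 and Try5 are near-identical in sequence, so their probes may read each other's transcripts and count as uncertain. The carboxypeptidase genes Cpa1 and Cpb1, whose enzymes trim peptides from the carboxyl end, had the same highest 3 arrays, with ADSC 10 above PBS 13 for Cpa1 and below it for Cpb1. Cpa1 stood at 7.56, 2.84, 8.84 and 3.44 in PBS and at -0.70, 1.51, 2.23 and 9.58 in ADSC. Cpb1 stood at 6.54, 1.83, 9.28 and 2.64 in PBS and at -3.00, 0.19, 0.87 and 8.85 in ADSC. Of the proteases not given array by array, Prss2 and Cela2a (an elastase) ranged over 11.03 and 12.56 log2 units, and the chymotrypsin genes Ctrb1 and Ctrl over 6.10 and 5.64.

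The fat-digesting enzymes showed the same arrays on top. Clps, colipase, the cofactor of pancreatic lipase, stood at 6.99, 2.46, 9.47 and 3.11 in inflammatory cells PBS 11 to 14 and at -0.10, 1.41, 2.13 and 9.15 in ADSC 7 to 10. Pnlip, pancreatic lipase itself, stood at 6.69, 1.58, 8.55 and 2.58 in PBS and at -1.70, 0.46, 0.90 and 8.73 in ADSC. Cel, the lipase activated by bile salts, stood at 6.59, 1.75, 7.11 and 2.41 in PBS and at -0.36, 0.56, 1.27 and 8.76 in ADSC. Cel differed from most others in that ADSC 10 was above PBS 13, by 1.65. Pnliprp1, Pnliprp2 and the phospholipase gene Pla2g1b ranged over 12.20, 9.79 and 7.18. They were detected on 7, 4 and 6 of the 8 inflammatory cell arrays, so these ranges include undetected values. Amy2a5, pancreatic amylase, which cleaves starch, stood at 6.85, 2.40, 9.61 and 3.17 in PBS and at -2.64, 0.09, 0.86 and 9.02 in ADSC. Its livers, between -0.71 and 0.75, were above ADSC 7. Amy2a5 and the liver and salivary amylase Amy1 are similar in sequence, so this probe too is uncertain. Rnase1 stood at 5.05, 0.28, 7.92 and 1.13 in PBS and at -3.60, -0.85, -0.45 and 7.62 in ADSC, with livers between -2.04 and -0.56. On this Rnase1 probe, as for Amy2a5, ADSC 7 was the one inflammatory cell array below every liver. The other Rnase1 probe read lower in the livers, between -5.70 and -3.71, and its lowest inflammatory cell array stood at -4.72. On that probe no inflammatory cell array was below every liver, so the probes disagree on this point.

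Granule proteins and the Reg genes belonged to the same pattern. Sycn, syncollin, a zymogen granule membrane protein, stood at 7.39, 2.12, 9.81 and 3.19 in inflammatory cells PBS 11 to 14 and at 0.75, 1.72, 2.14 and 9.73 in ADSC 7 to 10. Zg16, a lectin of the granule, stood at 5.10, 0.85, 7.60 and 1.23 in PBS and at -0.67, -0.10, 0.64 and 7.44 in ADSC. Klk1, tissue kallikrein, varied less, at 3.08, 0.47, 5.60 and 1.68 in PBS and at 0.59, 0.33, 0.53 and 5.17 in ADSC. The other granule members Gp2, Cuzd1, Dmbt1 and Serpini2 ranged over 10.10, 8.11, 7.07 and 8.43. They were detected on 6, 3, 8 and 3 of the 8 inflammatory cell arrays, so all these ranges but that of Dmbt1 include undetected values. Reg1, a secreted lectin that rises in injured pancreas, stood at 5.28, 0.76, 8.47 and 1.68 in PBS and at -2.90, -0.51, -0.42 and 7.72 in ADSC. Reg2, its neighbour in the family, departed from the others. It stood at 2.27, 0.60, 6.62 and -0.52 in PBS and at -5.29, -3.01, -5.51 and 3.37 in ADSC, so that PBS 13 was above ADSC 10 by 3.25. It was detected on 4 of 4 PBS arrays and on 1 of 4 ADSC arrays.

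The transcription factors varied far less than the enzymes. Nr5a2 stood at 0.54, -0.63, 0.78 and -0.23 in inflammatory cells PBS 11 to 14 and at 0.06, 1.95, 0.47 and 1.03 in ADSC 7 to 10, all below the livers, which lay between 2.36 and 3.23. Rbpjl, the acinar partner of PTF1A, was between -0.01 and 0.24 on 6 inflammatory cell arrays, with 1.14 in PBS 13 and 1.47 in ADSC 10. Bhlha15, which shapes the secretory cell, was -1.19, -1.72, -1.18 and -2.70 in PBS and -1.51, -1.55, -1.62 and 0.19 in ADSC, and it was detected on all 8 livers. The other Bhlha15 probe lay between 0.33 and 1.38 in the inflammatory cells, highest in PBS 13, and between -5.33 and -2.66 in the livers. The probes therefore disagree on the order of arrays and on the direction against liver. Ptf1a was detected on 2 of 8 inflammatory cell arrays, PBS 13 (-1.86) and ADSC 10 (-2.22).

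Over the 8 inflammatory cell arrays the acinar enzymes were among the most variable genes on the array. The standard deviation (SD) of the log2 level had a median of 3.81 over the 27 acinar members detected on at least 4 of these arrays, 1.76 over the 6 such islet members and 0.43 over 20158 genes. A range of over 8 log2 units was found for 19 of these 27 acinar members, 1 of the 6 islet members and 32 of the 20158 genes. Acinar members made up 8 of the 10 genes with the largest SD, 15 of the top 20 and 22 of the top 50. Cela2a, named here after its value was seen, ranked first with an SD of 4.59. It was detected on 6 of the 8 arrays, so its SD and its range include undetected values. The transcription factors Bhlha15 (by the probe used), Nr5a2 and Rbpjl ranked 1952, 1981 and 5541, with SDs of 0.80, 0.80 and 0.56. The unevenness was known when the members were chosen, so these ranks are a description. Over the 5 arrays other than PBS 11, PBS 13 and ADSC 10 the median SD was 1.43 for the acinar members, 1.29 for the islet members and 0.41 for all genes. Of the acinar members, 0 were then among the 20 genes with the largest SD and 1 among the top 50, and 0 genes ranged over more than 8.

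**Figure D3:**
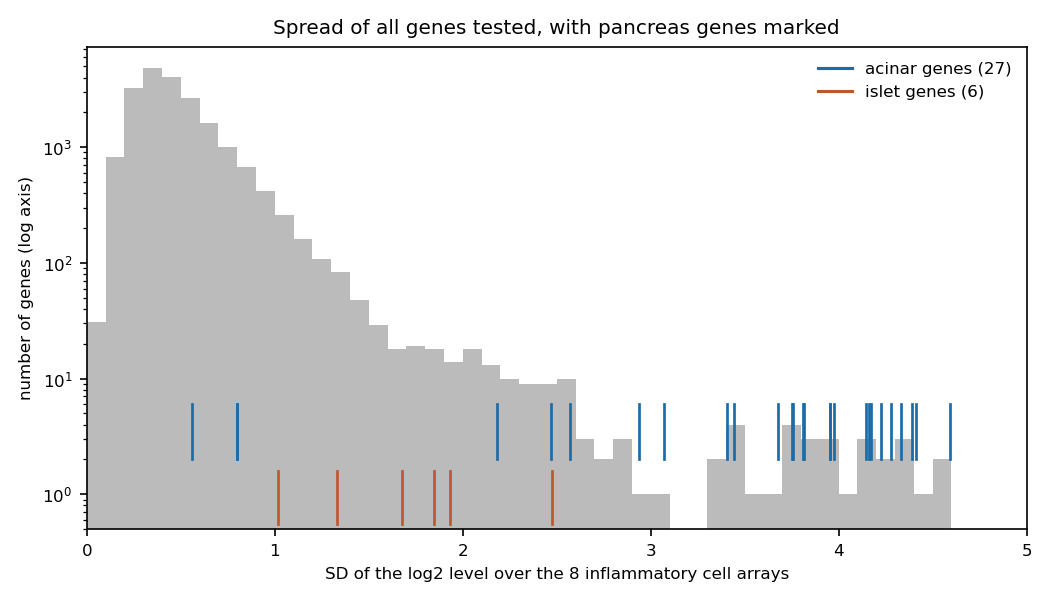
Number of genes (log axis) by the SD of their log2 level over the 8 inflammatory cell arrays, for 20158 genes, with the 27 acinar members (blue ticks) and 6 islet members (orange ticks) marked. Most acinar ticks lie above 2.5, while 3 lie at 0.80, 0.80 and 0.56 with the bulk of genes.

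The islet genes did not follow the order of arrays of the acinar genes. Ins2, insulin, stood at -2.48, 1.78, 5.83 and -0.96 in inflammatory cells PBS 11 to 14 and at 0.08, 2.40, 1.02 and 0.50 in ADSC 7 to 10. PBS 11, among the highest 3 for the enzymes, was the lowest for Ins2, and PBS 13 was the highest for both. Ins1, the other insulin gene, stood at -2.42, -0.36, 2.92 and -2.80 in PBS and at -2.03, 0.24, -0.77 and -1.64 in ADSC. Ins1 and Ins2 are close in sequence and may share signal. Iapp, amylin, which beta cells release with insulin, stood at -3.67, -1.25, 2.63 and -2.76 in PBS and at -1.996, -0.08, -1.92 and -2.09 in ADSC. Ppy, pancreatic polypeptide, stood at -2.40, -0.97, 2.20 and -2.24 in PBS and at -1.39, 1.32, -1.87 and -0.57 in ADSC. All 4 had PBS 13 as the highest array and ADSC 8 as the next.

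The glucagon gene Gcg and the somatostatin gene Sst were not detected on every array. Gcg stood at -2.53, -1.37, -0.61 and -3.73 in inflammatory cells PBS and at -2.90, -2.23, -2.77 and -3.27 in ADSC, detected on 6 of 8 arrays. Sst stood at -3.33, -1.86, -1.97 and -3.70 in PBS and at -4.30, -0.47, -3.84 and -1.70 in ADSC, detected on 4 of 8, and ADSC 8 was its highest array. Pdx1, the factor that specifies the pancreas and is kept on in beta cells, was detected on 2 of 8 and lay between -4.34 and -2.81. Over the 7 islet members, ADSC 8 was among the highest 3 arrays for 6, PBS 13 for 6, PBS 12 for 5 and PBS 11 for 1.

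In some pairs of arrays the acinar and islet genes moved apart, and in others they moved together. Differences were taken gene by gene where the gene was detected on both arrays. Between PBS 13 and ADSC 10 the median acinar difference was 0.20 (30 genes, the middle 50% from -0.23 to 0.35), whereas the islet genes were higher in PBS 13 by a median of 4.56 (5 genes: Ins2 5.32, Iapp 4.72, Ins1 4.56, Ppy 2.77 and Sst -0.27). Over all 17763 genes detected on both, that median was 0.04. Between PBS 11 and PBS 12 the acinar genes were higher in PBS 11, by a median of 4.49 with 26 of 26 above 0, and the islet genes were lower there, by a median of -1.75 with 0 of 4 above 0. PBS 11 minus ADSC 8 gave 5.84 over 22 acinar genes and -3.19 over 4 islet genes. Other pairs moved the same way in both sets. PBS 11 was below ADSC 10 for 29 of 29 acinar genes, by -2.16 in the median, and for 3 of 3 islet genes, by -1.83. PBS 13 minus PBS 14 gave 6.36 over 27 acinar genes and 5.55 over 4 islet genes. PBS 11 minus PBS 13 gave -2.38 and -4.97, and PBS 13 minus ADSC 9 gave 7.48 and 4.07. These are differences between single samples and have no replicate check.

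**Figure D4:**
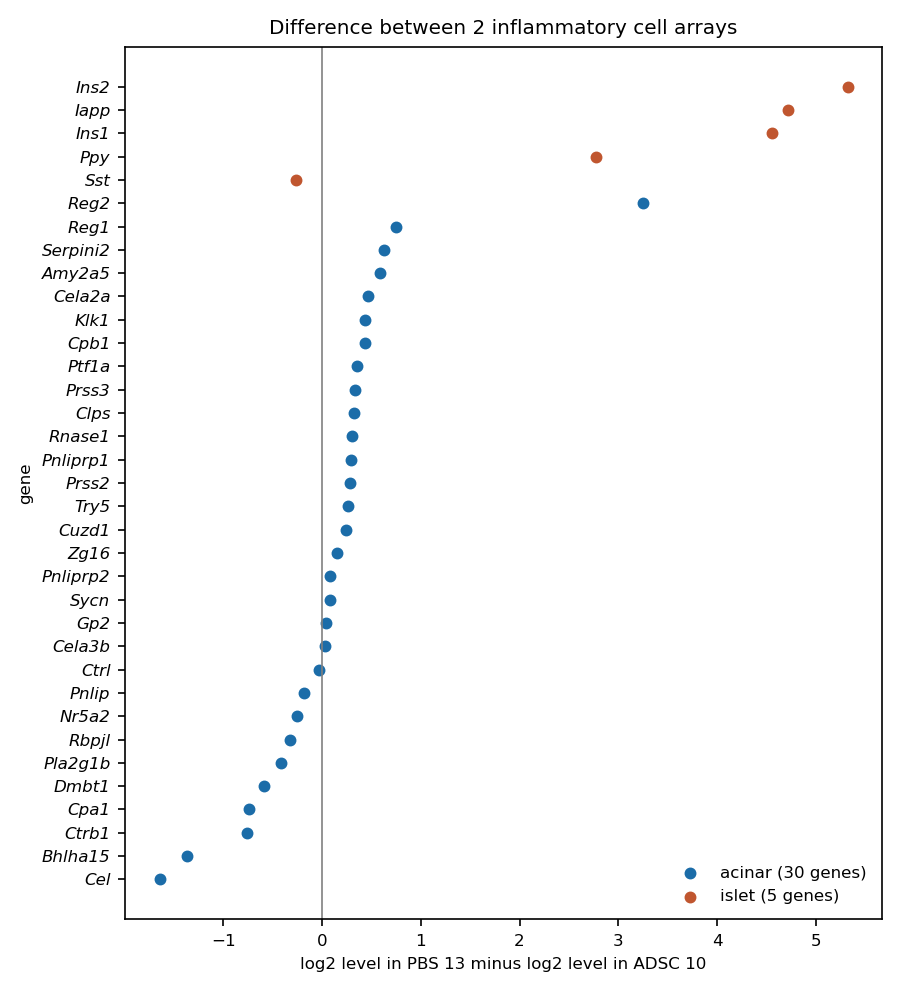
Log2 level in inflammatory cells PBS 13 minus that in ADSC 10 for each member detected on both, 30 acinar genes (blue) and 5 islet genes (orange). Most acinar genes lie close to 0, with Cel at -1.65 and Reg2 at 3.25 at the ends, and Ins2, Iapp, Ins1 and Ppy lie between 2.77 and 5.32.

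Against liver most members stood higher in the inflammatory cells of both treatments. This contrast was known when the members were chosen, so its values are a description and support nothing. For a member detected on no liver array of a treatment the fold is a bound, set against the higher, per array, of the lowest signal among detected probes and the probe's own. Cela3b was at least 1019-fold higher in the PBS inflammatory cells than in the PBS livers and at least 97.3-fold higher in ADSC. Single arrays moved these bounds: leaving out 1 inflammatory cell array gave 424-fold (without PBS 13) to 2078-fold (without PBS 12) in PBS, and 20.1-fold (without ADSC 10) to 273-fold (without ADSC 7) in ADSC. Without PBS 11 and PBS 13 together the PBS bound for Cela3b was 148-fold. Prss3 was at least 858-fold and 87.6-fold higher, and Cpa1 at least 713-fold and 99.6-fold. Reg1 was at least 232-fold and 21.9-fold higher, Ins2 at least 28.8-fold and 22.4-fold, Ins1 at least 8.86-fold and 5.40-fold, and Ppy at least 7.77-fold and 7.23-fold. Without PBS 11, PBS 13 and ADSC 10 the bounds in PBS and ADSC were 131-fold and 19.7-fold for Prss3, 124-fold and 22.6-fold for Cpa1, and 32.6-fold and 4.61-fold for Reg1. For the islet genes they were 18.6-fold and 25.1-fold for Ins2, 4.71-fold and 6.188-fold for Ins1, and 4.61-fold and 7.13-fold for Ppy. Leaving out PBS 13 alone lowered the PBS bounds to 9.55-fold for Ins2, 3.87-fold for Ins1 and 3.84-fold for Ppy. Every inflammatory cell array was above every liver for 28 of 30 acinar members in PBS, for 19 of 30 in ADSC, and for 7 of 7 islet members in both. The share of all genes separated in this way was not counted, so nothing is read from these counts. Some of these members were near background in the inflammatory cells too: Pdx1 and Ptf1a were each detected there on 2 of 8 arrays. In limma's fit over all genes (adjusted p under 0.05) 84.3% of 22139 genes differed between the sample types. All 33 members tested were among them, and nothing is read from this count; 31 were higher in inflammatory cells, while Nr5a2 (-2.31) and the probe used for Bhlha15 (-0.81) were lower. Over all genes, 49% were higher in inflammatory cells and 35.2% lower.

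The main question was whether ADSC changed these genes in the inflammatory cells. The 24 acinar members other than the 3 transcription factors had estimates below 0, that is lower after ADSC, but arrays of 1 treatment differed by more than the treatments did, and 0 of the 33 members tested (27 acinar and 6 islet) passed limma's test. One member, Reg2, had an unadjusted p under 0.05, but it was detected on only 1 of 4 ADSC arrays. Over all genes, 246 of 20165 (1.22%) passed, 27 higher (0.134%) and 219 lower (1.09%), and 3736 had an unadjusted p under 0.05. The median estimate was -2.65 over the acinar members, -0.15 over the islet members and 0.03 over all genes, and the median standard error (SE) was 2.01 over the acinar members against 0.28 over all genes. Cuzd1, Serpini2, Ptf1a and Pdx1 were too dim to be tested.

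By role, the estimates (log2 ADSC minus PBS ± SE, 4 arrays against 4) were as follows. The 7 protease genes other than carboxypeptidases had a median of -2.96, with Cela3b at -3.06 ± 2.19 and adjusted p = 0.465, Prss3 at -2.96 ± 2.07 and Try5 at -2.74 ± 2.01. The carboxypeptidases had a median of -2.93, the 6 lipase genes one of -2.50 and the 5 granule genes tested one of -1.86. Amy2a5 stood at -3.67 ± 2.26 with adjusted p = 0.394. Reg1 stood at -3.07 ± 2.18. Reg2 had the largest estimate among the members, -4.85 ± 1.95, with adjusted p = 0.233 in limma. It was detected on 4 of 4 PBS arrays and 1 of 4 ADSC arrays. It thus met the filter through the PBS arrays, and the estimate includes undetected ADSC values. Its PBS arrays (-0.52 to 6.62) and ADSC arrays (-5.51 to 3.37) overlapped. The transcription factors lay on the other side of 0, with Nr5a2 at 0.76 ± 0.43, Bhlha15 at 0.58 ± 0.46 and Rbpjl at 0.19 ± 0.36. Their adjusted p-values in limma were 0.36, 0.517 and 0.812. The Bhlha15 estimate is that of the probe used. Its other probe was brighter in the inflammatory cells (mean 0.72 against -1.41) and ordered the arrays differently. Islet estimates ran from -0.73 ± 0.56 for Gcg to 0.23 ± 0.97 for Ppy, with adjusted p-values from 0.50 to 0.993. For none of the 37 members did the 4 ADSC arrays lie all above or all below the 4 PBS arrays. How many of all genes separated in this way was not counted, so this describes the members only.

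**Figure D5:**
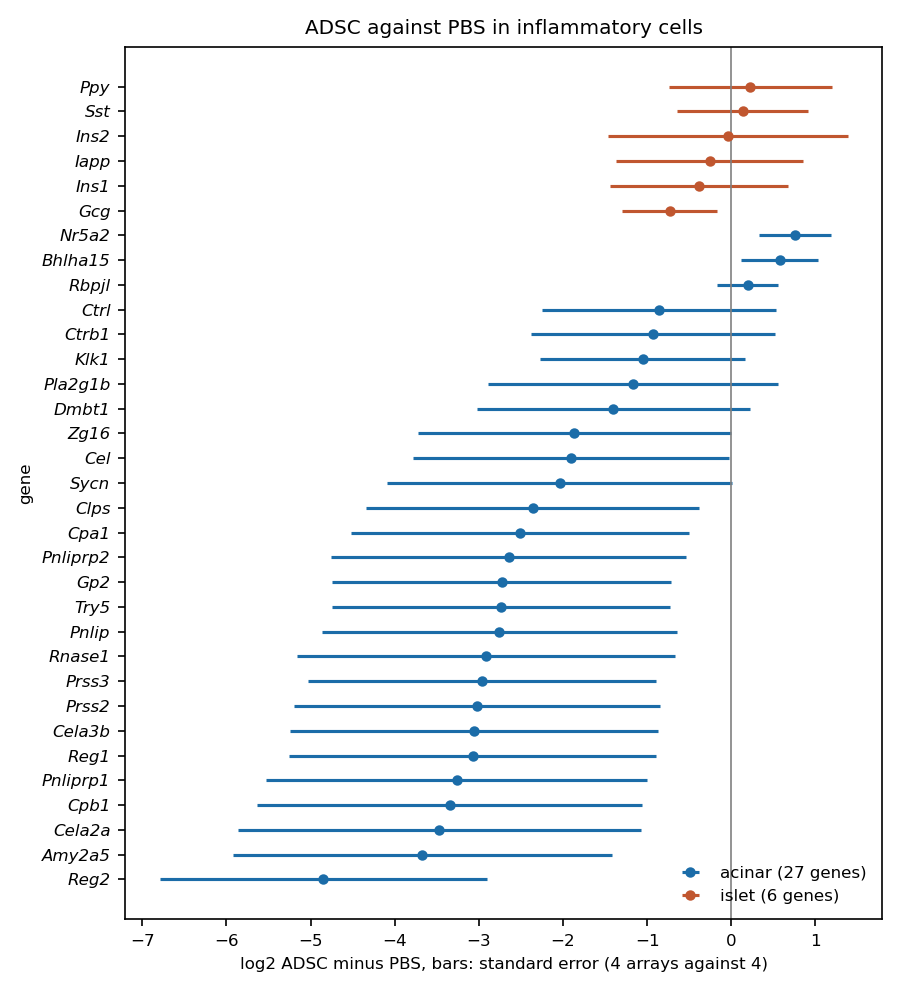
Estimated log2 difference, ADSC minus PBS, in inflammatory cells for the 27 acinar (blue) and 6 islet (orange) members tested; points are estimates and bars the standard error of limma's fit over 4 arrays against 4. Reg2, detected on 1 of 4 ADSC arrays, lies lowest at -4.85, the 3 transcription factors lie above 0, and 0 of the 33 passed the adjusted threshold.

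The acinar difference changed in size with the arrays left out. Its median was -1.45 without PBS 13, -1.47 without ADSC 7 and -4.74 without ADSC 10, and -1.88 without PBS 11, PBS 13 and ADSC 10 together. The 246 genes over the whole array became 80 without PBS 12, 504 without ADSC 7, 138 without ADSC 8, 71 without ADSC 9, 89 without ADSC 10 and 0 without the 3 arrays that stood apart, where 4596 had an unadjusted p under 0.05; 0 members passed in each case. Slides and scan days were shared by some arrays of both treatments. On slide 2, ADSC 8 minus PBS 11 had an acinar median of -5.72 and an islet median of 2.86. On slide 3, ADSC 7 minus PBS 12 gave -2.64 and -1.53. Within the second scan day (2 arrays against 2) the medians were -4.36 and 0.50. These are the same arrays as on slides 2 and 3, so this is not a separate check. Within the third scan day (ADSC 9 and ADSC 10 against PBS 13) the medians were -3.79 and -3.42. The islet median changed sign between these batches while the acinar median stayed below 0. PBS 14 shared no slide or scan day with ADSC inflammatory cells and is in none of these differences. With slide as a fixed block the acinar median was -4.72 and 0 members passed. That estimate again rested on slides 2 and 3, the only slides with inflammatory cells of both treatments. Neutrophil genes moved with treatment in the same arrays: 7 of 7 on the list (such as Elane and Mpo) fell with ADSC, and their mean lay between 5.60 and 7.44 in PBS and between 2.09 and 3.14 in ADSC. It was lowest in ADSC 10, where the acinar genes were high; its part in the acinar values was not tested.

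In whole liver no member differed between ADSC and PBS past the threshold. Of 17321 genes, 0 (0%) passed limma's test and 806 had an unadjusted p under 0.05; 10 acinar members and 0 islet members were bright enough to be tested, 0 passed, and 0 had an unadjusted p under 0.05. Their estimates ran from -0.07 (Klk1) to 1.602 ± 0.72 (Pnliprp1, adjusted p = 0.998). Pnliprp1 stood at -2.76, -6.68, -3.65 and -4.21 in liver PBS 11 to 14, detected on 1 of 4, and at -2.94, -2.57, -2.64 and -2.74 in liver ADSC 7 to 10, detected on 4 of 4, so the groups overlapped through PBS 11. The liver arrays with the numbers 11, 13 and 10 did not stand apart: the acinar median was -4.65 in liver PBS 11, -4.67 in liver PBS 13 and -4.47 in liver ADSC 10. The difference between the ADSC effects in the inflammatory cells and in the liver passed limma's test for 7 of 22139 genes (0.0316%, all lower). It passed for 0 of 33 members, of which 1, Reg2 (-5.24 ± 2.31, adjusted p = 0.471), had an unadjusted p under 0.05. Reg2 was detected on 0 of 8 livers and 1 of 4 ADSC inflammatory cell arrays, so this value too includes undetected signal.

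Genes outside the set were ranked by how closely they followed the mean acinar profile over the 8 inflammatory cell arrays, each gene centred on its own mean. The measure was the root mean square difference in log2 units, over 12191 symbols, with a median of 3.12. The closest included Reg3b (0.60), 2210010C04Rik (0.67), Cela1 (an elastase, 0.68), Amy1 (0.74), Tff2 (a trefoil peptide of mucus, 1.17) and Klk1b3 (a kallikrein, 1.38). A further 8 lay between 2.10 and 2.42: Klk1b4, Klk1b8, Klk1b21, Cldn8, Nupr1, Ppic, Gcat and the cytokine gene Il6. Kallikreins are near-identical to Klk1 and may share its signal. Of the members, Clps (0.37) and Zg16 (0.37) lay closest and 24 of the 27 within 1.68. Bhlha15 (2.69, by the probe used), Rbpjl (2.71) and Nr5a2 (3.01) lay outside. The profile was the mean of these same 27 members, so their closeness to it is partly built in and is a description only. Islet members lay between 2.97 (Sst) and 3.45 (Ins2), on both sides of the median of all symbols. The measure counts the size of a gene's changes as well as their order over the arrays. A gene that varied little, such as Rbpjl, therefore could not lie close, even with ADSC 10 and PBS 13 as its highest arrays. The ranking rested on PBS 11, PBS 13 and ADSC 10: over the other 5 arrays the median of all symbols was 1.08, and 2 of the 15 nearest genes were again among the nearest 15.

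Amy1 is a case where liver and inflammatory cells both carried signal. It stood at 9.66, 5.52, 10.46 and 6.18 in inflammatory cells PBS 11 to 14 and at 0.92, 4.09, 4.71 and 10.42 in ADSC 7 to 10, against 4.14 to 5.44 in the 8 livers. The high arrays were again PBS 11, PBS 13 and ADSC 10, and ADSC 7 and ADSC 8 were below every liver. The other acinar genes on a list of 17, of which 12 had a probe, were detected as 10 of 12 in PBS 11, 12 of 12 in PBS 13 and 12 of 12 in ADSC 10, against 3 to 5 of 12 in the other 5 inflammatory cell arrays and 3 or 4 in the livers. Reg3g, an antibacterial lectin named after its values were seen, stood at -0.30 in PBS 11, 1.84 in PBS 13 and 2.55 in ADSC 10 and between -5.62 and -4.54 in the other 5. In limma's ADSC against PBS test 5 of the 12 were bright enough to be tested and 0 passed.

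Further islet genes were tallied on a list of 20, all with a probe. Their mean over the inflammatory cell arrays was highest in PBS 13 (-2.45) and next in ADSC 8 (-2.66), which were also the top 2 arrays for Ins1, Ins2, Iapp and Ppy. The order below them differed: PBS 11 came close behind at -2.76, though it was the lowest array for Ins2, Iapp and Ppy. Between 7 and 11 of the 20 were detected per inflammatory cell array, so these means include values at background. ADSC 8 was the dimmest of these arrays, with a 75th percentile of 117 against 213 to 480 on the others. After scaling, its lowest value on the list was -4.84, against -5.15 to -5.90 elsewhere. With 8 of the 20 detected in ADSC 8, against 11 in PBS 13, the place of ADSC 8 in this mean is uncertain. Of the 20, 7 were detected on 0 inflammatory cell arrays, among them the beta cell factor Mafa and the endocrine factors Neurod1 and Isl1. The genes named next were picked after their values were seen. Pcsk1, a hormone-processing protease, stood at -0.20 in PBS 13 and between -3.66 and -2.95 elsewhere. Abcc8, a subunit of the beta cell potassium channel, and G6pc2, an islet glucose-6-phosphatase, were detected in PBS 13 alone, at -0.73 and -1.50. The gut and islet peptide gene Pyy was highest in PBS 13 (1.89) and ADSC 8 (1.29). The granule protein genes Chga and Chgb were highest in PBS 11, at 0.44 and 1.08. In limma 8 were tested between ADSC and PBS and 0 passed. Duct genes (7 on the list, such as Krt19 and Sox9) had means between -1.18 and 0.08 in the inflammatory cells, against -1.10 to 0.67 in the livers, with the highest in ADSC 8.

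Some stomach genes were high in 1 of the arrays with high acinar genes; those given here were named after their values were seen. Gkn2, a gastrokine of the gastric mucus, stood at 4.15 in PBS 13 and between -5.45 and -2.85 in the other 7 inflammatory cell arrays. Tff1, a gastric trefoil peptide, stood at 4.66 in PBS 13 and between -2.83 and -1.51 in the others. Over the 8 stomach genes the mean was -0.62 in PBS 13, with 6 detected, and between -3.57 and -2.67 in the other 7; Gkn1 was detected on none. Tff2 was counted above on the list of other acinar genes and is not among these 8 stomach genes. It stood at 7.60 in PBS 13, 4.47 in ADSC 10 and 2.20 in PBS 11, with 1.63 in PBS 14 and between -2.32 and -0.56 in the others. The part of Gkn2, Tff1 and Tff2 in the level of the acinar and islet genes in PBS 13 was not tested.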

How the data were processed

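Expression was measured on 16 Agilent 1-colour arrays of Cy3-labelled RNA. The processed signal is an intensity made with Feature Extraction 10.5.1.1, background-subtracted and detrended per the file headers, with no scaling between arrays. The deposited value table is the same linear intensity, with a largest relative difference of 0 and column medians from 30.6 to 90.9. The 0 or 1 marks for detected, outlying and saturated spots, a score per the file headers, were also read.

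Here outlying spots were dropped, spots averaged, log2 taken and each array's 75th percentile over probes subtracted. The accessions in the files named 23374 of 41174 probes with 16535 RefSeq symbols (GRCm38.p6); the array was designed on another build, so no positions of probes are given. The brightest probe stood for a gene. Genes detected on at least 4 arrays of a fit were tested with limma 3.58.1 (lmFit, eBayes) in R 4.3.3, with Benjamini-Hochberg adjustment across every gene tested, at 0.05: ADSC against PBS in 8 arrays of each sample type, and sample types and the difference of effects over 16. The number of arrays limits the precision.

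The members, gene lists and tests were chosen with earlier results of these data known. Genes given array by array were up to 3 per role with the highest mean over the inflammatory cell arrays and every islet gene; genes outside the set were the 15 nearest by likeness, of which 1 is not reported here. Normexp background correction (offset 50) used the median spot signal, as an intensity per the file headers, since the mean signal was not in the files used here. Other alternatives were other scaling, filters, probe averages, slide, scan day, array weights and arrays left out. The fold bounds, spread and likeness with arrays left out were chosen after seeing the data. The fits were tested on simulated data with noise drawn separately for each gene. In inflammatory cells 36%, 76%, 88% and 100% of changes of 1, 2, 3 and 4 log2 units were recovered, with 6 false calls. In liver the shares were 62%, 84%, 98% and 100%, with 8 false calls. The acinar genes moved together and had larger SEs, so these shares need not hold for them. No 2 arrays of a group differed by a median under 0.141, so none was taken as a duplicate.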

Additional observations from a re-analysis of the deposited data

Results flagged for a closer look

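Within the groups of 4 arrays, 15 of 101 gene and group pairs had 1 array far from the other 3 by Dixon's test. Chance flags about 1 in 20 groups, but the members were chosen with their unevenness known and genes of 1 array move together, so these are a description and not separate draws. In 11 of them inflammatory cells ADSC 10 was the high array among the ADSC arrays: Sycn at 9.73, Ctrb1 at 7.501, Zg16 at 7.44, Ctrl at 6.33, Klk1 at 5.17, Dmbt1 at 4.46, Pla2g1b at 3.69, Cuzd1 at 1.97, Rbpjl at 1.47, Bhlha15 at 0.19 and Ptf1a at -2.22. The Bhlha15 value is that of the probe used, and the other Bhlha15 probe was highest in inflammatory cells PBS 13. Rbpjl was also high in inflammatory cells PBS 13, at 1.14. Iapp was high in inflammatory cells ADSC 8, at -0.081, against -1.92 in the nearest ADSC array. In the livers, Pla2g1b was high in ADSC 8 at -3.27, and Rnase1 in PBS 11 at -0.64.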

How the results depend on the processing

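For ADSC against PBS in inflammatory cells, 0 members passed under each of 11 alternatives and on leaving out any 1 array, and the acinar median stayed below 0, between -4.74 and -0.98. The count over all genes was 246: it was 376 with normexp and the 75th percentile, 115 with no filter, 0 with slide as a fixed block (5345 with an unadjusted p under 0.05), 821 with slide as a random block, 161 with scan day, 4462 with array weights and 0 without PBS 11, PBS 13 and ADSC 10; leaving out 1 array gave 71 to 504. In liver the count of 0 became 1 with probe means and 13 with array weights, and 0 on leaving out any array. For sample types, 10425 genes (4856 higher and 5569 lower) and 5 members passed when detection on every array was required. Those members, Ctrb1, Amy2a5, Klk1, Bhlha15 and Nr5a2, were the only ones detected on every array, so the filter and not the test removed the others. For the difference of effects, 7 became 33 with normexp and the 75th percentile, 74 with normexp and quantiles, 1 with the percentile over detected probes, 0 without the filter, 64 with detection on every array, 0 with slide as a fixed block, 0 with scan day, 914 with array weights and 0 without the 3 arrays, with 0 to 46 on leaving out 1 array; 0 members passed throughout.

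Of 462 re-estimates of 25 single values, 0 passed the threshold and 30 turned sign. Ins2 turned to 0.06 with the percentile over detected probes, 0.025 with probe means, 1.59 with slide as a fixed and 0.54 as a random block, 0.78 with array weights and 0.76 without the 3 arrays. Ins1 turned to 0.50, 0.42 and 0.72, and Iapp to 1.42, 0.27 and 0.67, with slide fixed, weights and without the 3 arrays, and Iapp to 0.37 with slide random. Bhlha15 turned to -0.076 with slide fixed. Scan day turned Ppy to -0.38, Sst to -0.19 and Rbpjl to -0.036, and weights turned Sst to -0.27. Leaving out 1 array gave ranges of -1.21 to 1.56 for Ins2, -1.10 to 0.81 for Ins1, -1.06 to 1.04 for Iapp, -0.43 to 1.24 for Ppy, -0.19 to 0.71 for Sst and -0.12 to 0.47 for Rbpjl. The causes were not tested.

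Liver and inflammatory cell arrays share numbers, but same-numbered arrays correlated at only -0.06 to 0.17 in their deviations, so the numbers were not taken as pairs; the replicate block gave 0 genes for the difference of effects and 0 members. Genes near background, such as Pdx1 and Ptf1a, are limited by signal.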
